A study of Mus musculus with 7 samples.

Results

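Kinesins are the motor proteins that walk along microtubules, and 40 genes of the family were measured among 18193 genes in mouse T cell acute lymphoblastic leukemias. Members were chosen by name: every gene whose symbol is Kif followed by a number, with or without a letter, and Kifc1, Kifc2 and Kifc3. Of 41 RefSeq symbols that meet this rule, 40 had a probe set assigned to a single gene symbol, and Kif19a was not analysed here. Each gene was read from 1 probe set, the one with the highest mean over the 7 arrays. From what the motors are known to do, 13 members were grouped as mitotic kinesins, 15 as transport kinesins, 5 as kinesins of the cilium and 7 as others.

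The study compared leukemias driven by 2 oncogenes in terminally ill C57Bl/6 mice, on 1 Affymetrix expression array per sample. The 3 ICN1 samples were bone marrow cell suspensions from mice whose leukemia was induced by activated NOTCH1. The 4 TEL-JAK2 samples were thymus cell suspensions from mice whose leukemia was induced by the fusion kinase TEL-JAK2. The tissues were crushed or dissociated and filtered, and the labels name no sorting step, no healthy control and no promoter or vector behind either oncogene. Genotype and tissue form the same 2 groups, so they cannot be told apart in any comparison below. The labels do not state that the samples of a group came from separate mice, so a p-value here covers the spread among these arrays, whatever its source.

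A kinesin couples the hydrolysis of ATP to movement along a microtubule, or to the shortening of its end. The mitotic kinesins build the spindle, align the chromosomes and complete the division of the cell, and most of them are made in G2 and M phase. The transport kinesins carry vesicles, organelles, protein complexes and RNA through the cytoplasm of dividing and resting cells alike. In T cells, microtubules also carry the centrosome and vesicles to the contact with a target cell.

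The mitotic kinesins were lower in the TEL-JAK2 leukemias, and the transport kinesins were not. Of the 13 mitotic kinesins, 10 fell in TEL-JAK2, 9 of them by at least 2-fold (6.1% of all genes fell that far), and 1 rose slightly. Of the 15 transport kinesins 0 fell and 2 rose, Kif3b and Kifc2 (limma; at an unadjusted p under 0.05, 0 were lower and 6 higher, where 17.2% and 18.8% of all genes were). Kif24 of the cilium group and Kif2a of the others fell as well, and Kif21b of the others rose. Calls rest on limma at an adjusted p under 0.05 (Benjamini-Hochberg, 18193 genes). By that rule 16 of 40 kinesins (40%) differed, 12 lower and 4 higher, where 24.1% of all genes differed, 12.2% lower and 11.9% higher. The median difference, TEL-JAK2 minus ICN1 on the log2 scale, was -1.83 over the mitotic kinesins (range -2.20 to 0.32) and 0.23 over the transport kinesins (-0.18 to 1.09). It was -0.01 over all 40 kinesins and 0.04 over all genes.

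**Figure D1:**
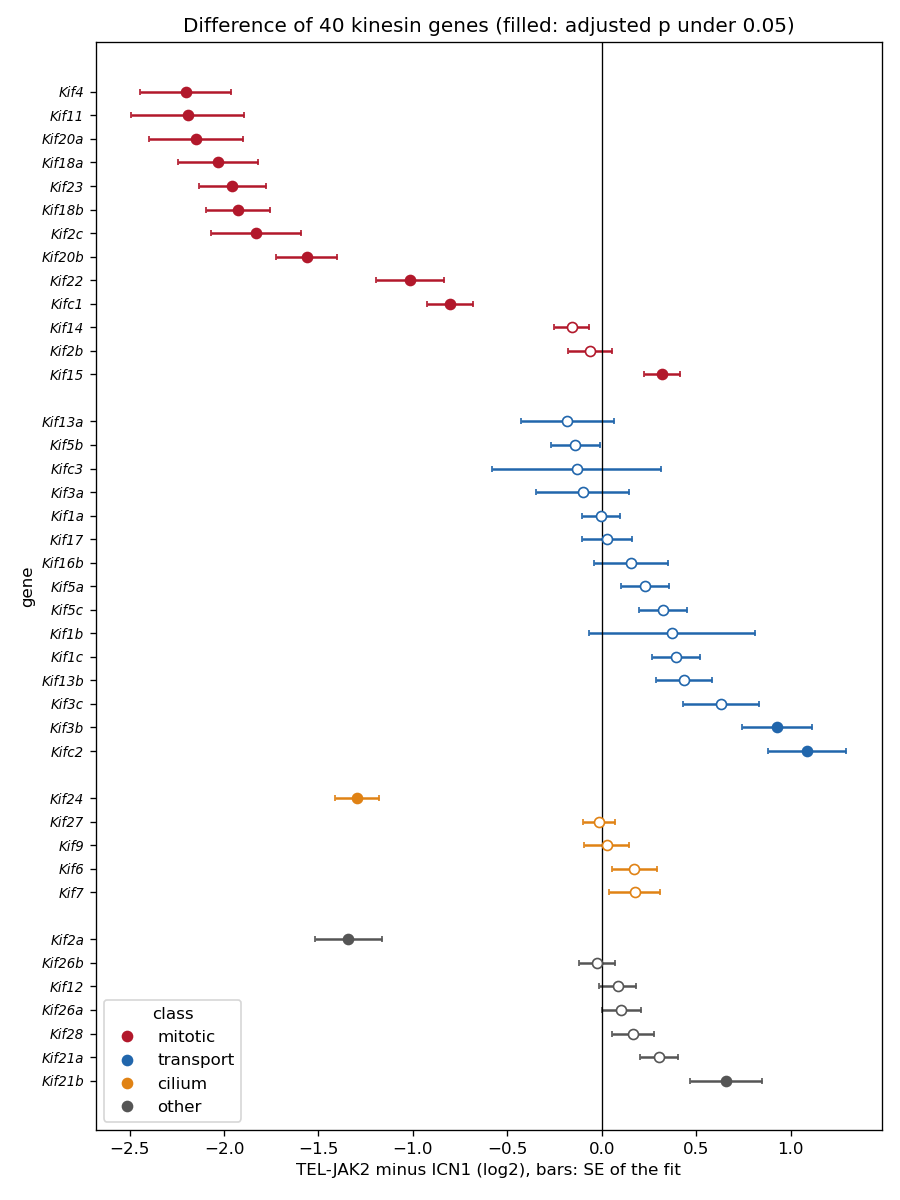
Difference in level (x axis, TEL-JAK2 minus ICN1, log2) for each of the 40 kinesin genes (y axis, grouped by class), with bars of 1 standard error of the limma fit (n = 3 ICN1 and 4 TEL-JAK2 arrays) and filled points for genes called at an adjusted p under 0.05. The filled points below 0 are 10 mitotic kinesins, Kif24 and Kif2a, and the filled points above 0 are Kif3b, Kifc2, Kif21b and Kif15.

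Properties of the samples bear on these counts. ICN1 replicates 1 and 2 held both Xist (11.51 and 11.78) and the Y-linked Eif2s3y (8.93 and 9.41), while each of the other 5 arrays held 1 of the 2 at a high level. Without both arrays, 10 kinesins were called lower, 8 of them mitotic, and 0 higher, where 8.56% and 5.71% of all genes were. The 11 erythroid markers measured averaged 11.27 to 11.54 in ICN1 and 5.86 to 6.17 in TEL-JAK2, with 9 lower. The defining red cell genes Slc4a1 (13.84 in ICN1, 5.07 in TEL-JAK2) and Rhag (11.89 and 3.30) showed the largest falls of the list. Both TEL-JAK2 means were below the median probe set of 5.52, though Slc4a1 read 5.89 in TEL-JAK2 replicate 2. The 2 erythroid markers not called by limma were Gata1 (10.49 and 9.68, adjusted p = 0.0637) and Hba-a1 (3.91 and 3.87, adjusted p = 0.841). The Hba-a1 probe set was dim, from 3.71 to 4.08 over the arrays of both groups, so its value says little. Of 11 markers of the T lineage, 2 were lower (0 to 2 without 1 array, and 0 without ICN1 replicate 2 or 3 or TEL-JAK2 replicate 1) and 6 higher, and their average ran from 10.99 to 11.04 in ICN1 and from 11.18 to 11.65 in TEL-JAK2. Granulocyte markers averaged 6.17 to 7.81 in ICN1 and 5.17 to 5.63 in TEL-JAK2, macrophage markers 8.32 to 9.84 and 5.91 to 8.15, and megakaryocyte markers 6.44 to 7.86 and 5.35 to 5.59. Their counts of lower genes depended on single arrays. Of all genes, 12.2% were lower and 11.9% higher with all 7 arrays. In the fits without 1 array, 9.26% to 11.4% of all genes were lower and 8.38% to 11.9% higher. Granulocyte markers were lower in 5 of 11, but in 2 without ICN1 replicate 1 or TEL-JAK2 replicate 1 or 2 and in 3 without TEL-JAK2 replicate 3. Macrophage markers were lower in 5 of 11, in 1 without ICN1 replicate 1 or 2, in 2 without TEL-JAK2 replicate 1 and in 3 without replicate 3. Megakaryocyte markers were lower in 4 of 6, in 1 without TEL-JAK2 replicate 1 and in 2 without its replicate 2 or ICN1 replicate 1. Stromal and endothelial markers were lower in 1 of 10, in 4 without TEL-JAK2 replicate 4, in 2 without ICN1 replicate 3 and in 0 without any other array. B lineage markers were higher in 1 of 10, and in 0 without ICN1 replicate 1 or TEL-JAK2 replicate 3. Thymic epithelial markers were higher in 3 of 10, in 1 without any single ICN1 array or TEL-JAK2 replicate 1, and in 2 without TEL-JAK2 replicate 2 or 4. With each array centred on 4 CD3 genes, 62.7% of all genes were lower. On that scale 10 of 11 granulocyte, 10 of 11 macrophage, 5 of 6 megakaryocyte and 7 of 10 stromal and endothelial markers were. The part of these other cells in the kinesin differences was not tested, and in bulk samples fewer cells of a type and less RNA per cell cannot be told apart.

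Promoters of several members are shown first, because cell cycle genes are known to share short elements near their start that bind the complexes switching them on in G2. The CHR (cell cycle genes homology region) was searched on both strands as TTTGAA or, in a variant form, as TTCGAA. The CCAAT box was searched by its 5 letters on both strands. A CCAAT box and a neighbouring CHR can share 1 end letter. RefSeq promoters of 300 bases, 250 before and 50 from a transcript start (GRCm38.p6), were matched by symbol for 32 of the 40 members. No promoter was used for Kif20a, called lower, or for Kifc2 and Kif21b, called higher. None was used for Kif5a, Kif5b, Kif13b, Kifc3 and Kif28 either. Start below means the start used in that promoter table, and 4 of the 32 genes had more than 1. For 4 of the 10 promoters printed it is the first base of the RefSeq gene record, and for the other 6 it lies 10 to 71 bases from it. The first set, 109 bases each, is 7 mitotic kinesins and Kif24, all called lower in TEL-JAK2 and each with a CHR match within 50 bases of the start. Capitals mark CHR and CCAAT matches as read on the strand of the gene, and a match on the other strand appears as its reverse complement.
Kif11: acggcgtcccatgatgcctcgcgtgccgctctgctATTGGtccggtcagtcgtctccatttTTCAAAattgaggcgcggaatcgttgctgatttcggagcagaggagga
Kif4: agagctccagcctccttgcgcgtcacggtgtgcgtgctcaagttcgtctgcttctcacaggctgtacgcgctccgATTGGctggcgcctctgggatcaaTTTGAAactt
Kif23: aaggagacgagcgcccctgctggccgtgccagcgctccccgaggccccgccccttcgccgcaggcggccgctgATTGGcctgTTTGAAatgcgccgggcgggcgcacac
Kif18b: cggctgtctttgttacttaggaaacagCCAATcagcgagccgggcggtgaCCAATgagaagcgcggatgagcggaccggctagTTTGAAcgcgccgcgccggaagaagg
Kif20b: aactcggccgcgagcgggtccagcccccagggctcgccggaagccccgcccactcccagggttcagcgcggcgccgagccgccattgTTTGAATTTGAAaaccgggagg
Kif22: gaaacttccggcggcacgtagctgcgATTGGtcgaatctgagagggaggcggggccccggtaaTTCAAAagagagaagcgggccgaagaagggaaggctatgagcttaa
Kifc1: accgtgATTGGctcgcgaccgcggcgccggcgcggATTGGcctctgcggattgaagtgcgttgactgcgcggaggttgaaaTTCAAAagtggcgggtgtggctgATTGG
Kif24: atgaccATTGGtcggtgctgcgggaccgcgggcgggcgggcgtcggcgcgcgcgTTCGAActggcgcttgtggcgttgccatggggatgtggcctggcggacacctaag
They lie at chr19:37376302-37376410 (plus strand) for Kif11, chrX:100625985-100626093 (plus) for Kif4, chr9:61946771-61946879 (minus) for Kif23 and chr11:102925096-102925204 (minus) for Kif18b. The Kif20b stretch is chr19:34922278-34922386 (plus) and that of Kif22 chr7:127042392-127042500 (minus). The Kifc1 stretch is chr17:33890605-33890713 (minus) and that of Kif24 chr4:41464820-41464928 (minus). Each begins 80 bases before the start used in the table.

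The promoters of 2 transport kinesins are given for contrast, Kif3b, which rose in TEL-JAK2, and its relative Kif3c. The Kif3b stretch is chr2:153291336-153291444 (plus strand) and the Kif3c stretch chr12:3365052-3365160 (plus), cut in the same way.
Kif3b: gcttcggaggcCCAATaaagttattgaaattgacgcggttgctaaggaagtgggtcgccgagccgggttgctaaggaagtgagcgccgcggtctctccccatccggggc
Kif3c: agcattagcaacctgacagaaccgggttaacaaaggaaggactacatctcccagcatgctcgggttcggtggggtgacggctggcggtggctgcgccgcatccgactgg
These letters hold no CHR match, and Kif3b has a single CCAAT box.

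A CHR match lay anywhere in the 300 bases of 10 of 12 mitotic kinesins with a promoter in the table and of 1 of 10 transport kinesins. A gene was counted if any of its starts held a match, and 21.7% of the 27025 genes in the table did. Within 50 bases of the start, 8 of the 12 mitotic promoters and 1 of the 10 transport promoters held one, against 6.12% of all genes. That narrower window was chosen after the matches had been seen. A CCAAT box was in 8 of 12 mitotic and 3 of 10 transport promoters and in 41.1% of all genes. Both elements occurred together in 7 mitotic and 0 transport promoters. A match describes the letters only and does not show that a factor binds there.

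The match and the change in level did not coincide in every member. Of the 11 kinesins called lower with a promoter in the table, 9 held a CHR match, and Kif18a and Kif2a fell without one. Kif15 had a CHR match beginning 19 bases before its start, as Kif11 did, and was not lower. Kif2c held its nearest match 103 bases before the start. The 1 transport kinesin with a match, Kif1a, was not called (-0.00 ± 0.10, SE, n = 3 and 4). Of the 19 promoters of kinesins that were not called, 4 held a match, those of Kif1a, Kif14, Kif26b and Kif27. These 4 genes and Kif15 all lay below the median probe set of 5.52, where a fall would be hard to see.

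**Figure D2:**
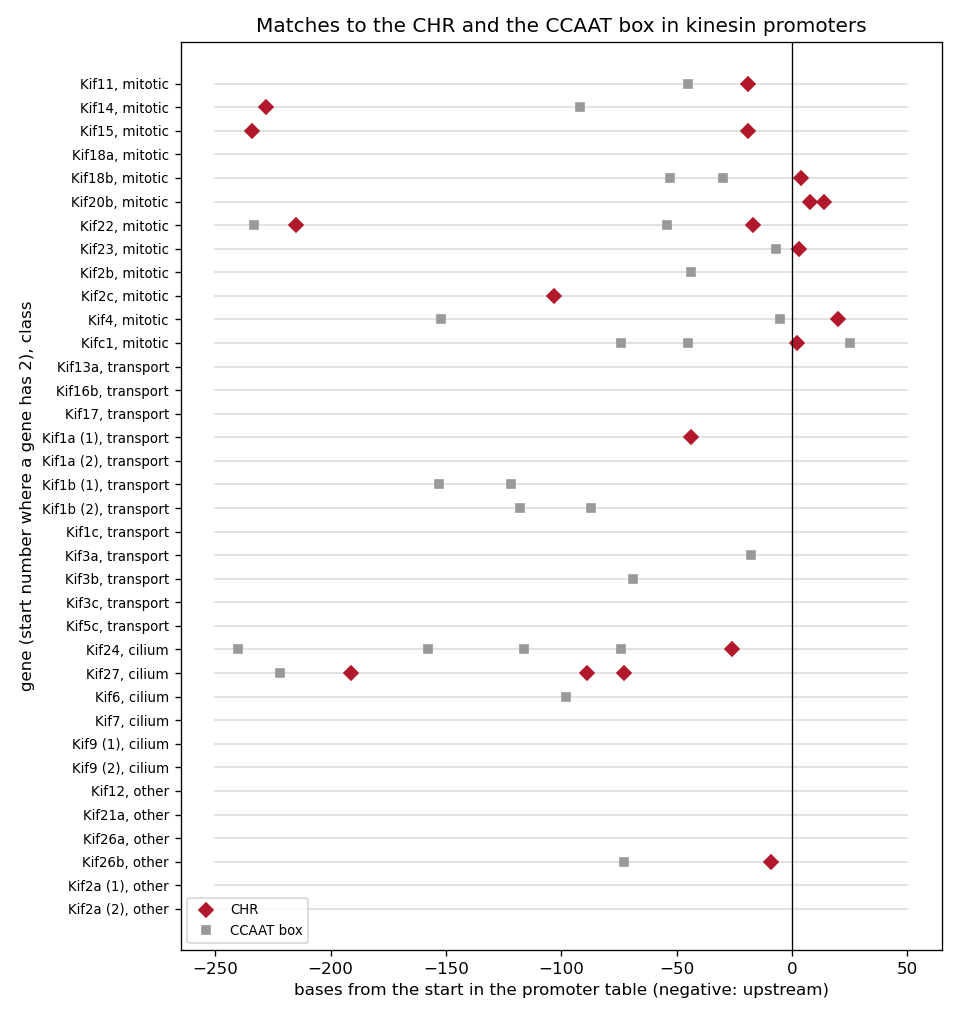
Positions of CHR and CCAAT matches (x axis, bases from the start in the promoter table, from 250 before to 50 after) in the RefSeq promoters of the kinesin genes (y axis, grouped by class). The call of a gene is not marked. A CHR match lies within 50 bases of the start in Kif24 and in 7 of the 9 mitotic kinesins called lower that have a promoter here. Of 10 transport promoters, 1 holds a CHR match.

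Kif11 is the plus-end motor that slides antiparallel spindle microtubules apart and separates the poles. Its level was 10.69, 10.69 and 10.49 in the 3 ICN1 arrays and 9.14, 8.54, 7.73 and 8.31 in the 4 TEL-JAK2 arrays. Every TEL-JAK2 array was lower than every ICN1 array, and TEL-JAK2 replicate 3 was the lowest. The means were 10.62 ± 0.11 and 8.43 ± 0.58 (SD, n = 3 and 4), a difference of -2.19 ± 0.30 (SE), or 4.57-fold (limma, adjusted p = 0.00231). All 3 of its probe sets were called lower, by -1.95 to -2.29. Without ICN1 replicates 1 and 2 the adjusted p of Kif11 was 0.0537.

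Kifc1 is a minus-end motor that crosslinks microtubules and gathers the poles, against the push of Kif11. Its levels were 7.85, 8.18 and 7.86 in ICN1 and 7.32, 7.20, 7.05 and 7.09 in TEL-JAK2. The groups did not overlap, and the difference was -0.80 ± 0.12 (adjusted p = 0.00365), the smallest among the mitotic kinesins that fell. The single Kifc1 probe set is of a type whose probes can match other transcripts, so the value is uncertain. Kifc5b, a near-identical copy outside the naming rule, stood at 7.71, 8.57 and 7.52 in ICN1 and 5.68, 5.54, 5.55 and 6.06 in TEL-JAK2 (-2.22 ± 0.26, adjusted p = 0.00132). Signal of the 2 genes cannot be divided with these probe sets.

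Kif15 can stand in for Kif11 in keeping the spindle bipolar, and it was the mitotic member that rose. It read 4.90, 4.70 and 4.64 in ICN1 and 5.04, 5.08, 5.11 and 5.01 in TEL-JAK2, below the median probe set of 5.52 in every array. The groups lay close together without overlapping, at 4.74 ± 0.13 and 5.06 ± 0.04 (SD). The difference of 0.32 ± 0.09 had an adjusted p of 0.0484, and leaving out any single array except ICN1 replicate 1 ended the call (adjusted p 0.0705 to 0.128).

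The kinesins that shorten microtubule ends at kinetochores and spindle poles followed the same direction in 3 of 4 mitotic cases. Kif18a, which damps the swinging of chromosomes at the metaphase plate, stood at 8.74, 9.03 and 8.92 in ICN1 and at 7.20, 7.01, 6.32 and 6.93 in TEL-JAK2. The arrays of the 2 groups were well separated, with a difference of -2.03 ± 0.21 (adjusted p = 0.000769). Kif18b, which trims the astral microtubules, stood at 9.58, 9.59 and 9.43 and at 7.88, 7.49, 7.23 and 7.82. Its ICN1 arrays were nearly equal (SD 0.09), and the difference was -1.93 ± 0.17 (adjusted p = 0.000392).

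Kif2c removes wrongly attached microtubules from kinetochores. It measured 9.49, 9.64 and 9.82 in ICN1 and 8.12, 7.84, 7.19 and 8.13 in TEL-JAK2, with TEL-JAK2 replicate 3 again lowest (-1.83 ± 0.24, adjusted p = 0.00192). Of its 4 probe sets, 3 were called lower. Kif2b, a relative that acts in early mitosis, was at the bottom of the scale in both groups, between 3.19 and 3.58 in the 7 arrays, and was not called (-0.06 ± 0.12, adjusted p = 0.74). Kif2a, the third of these relatives, was kept among the others because it also acts in resting cells. Its levels were 9.86, 10.08 and 9.77 in ICN1 and 8.58, 8.41, 8.98 and 8.28 in TEL-JAK2. It fell by 1.34 ± 0.18, a 2.53-fold difference (adjusted p = 0.00211), in all 5 of its probe sets. Unlike in the 10 mitotic members that fell, its highest TEL-JAK2 array was replicate 3.

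Kif4 and Kif22 are chromokinesins, which ride on chromosome arms and push them from the poles. Kif4 showed the largest difference of the 40 kinesins, with 9.46, 9.75 and 9.46 in ICN1 and 7.79, 7.31, 6.75 and 7.55 in TEL-JAK2 (-2.20 ± 0.24, 4.6-fold, adjusted p = 0.00095). Kif22 read 11.88, 11.93 and 11.87 in ICN1 and 11.17, 10.92, 10.40 and 11.02 in TEL-JAK2. The ICN1 arrays of Kif22 were nearly equal and all above the TEL-JAK2 arrays, and the difference was -1.02 ± 0.18 (adjusted p = 0.00689). The probe set used for Kif22 can match other transcripts. Its other 2 probe sets were also called lower, by -2.06 and -1.10. Without ICN1 replicates 1 and 2 the adjusted p of Kif22 was 0.0976.

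The kinesins of the central spindle and midbody complete the list of those that fell. Kif23 forms centralspindlin with Racgap1 and bundles the microtubules between the separating chromosomes. Its levels were 10.30, 10.48 and 10.21 in ICN1 and 8.67, 8.30, 7.97 and 8.55 in TEL-JAK2 (-1.96 ± 0.18, adjusted p = 0.000441). Kif20a, which moves the chromosomal passenger complex to the central spindle, stood at 9.92, 9.72 and 9.82 and at 8.10, 7.67, 7.0 and 7.92 (-2.15 ± 0.25, adjusted p = 0.00123). In both genes the lowest ICN1 array was more than 1 log2 unit above the highest TEL-JAK2 array.

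Kif20b, which acts late in cytokinesis, stood at 9.49, 9.63 and 9.70 in ICN1 and 8.28, 8.07, 7.66 and 8.18 in TEL-JAK2. The groups were again apart, by -1.56 ± 0.16 (adjusted p = 0.00073), and 3 of its 4 probe sets were called lower. Kif14, which works with citron kinase at the midbody, was dim, between 3.98 and 4.29 in all arrays, and was not called (-0.16 ± 0.09, adjusted p = 0.272). The 12 kinesins called lower, mitotic or not, all lay above the median probe set, as did 25 of the 40 members, and 29 of their 31 probe sets were called lower. Kif14, Kif2b and Kif15 lay below it.

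**Figure D3:**
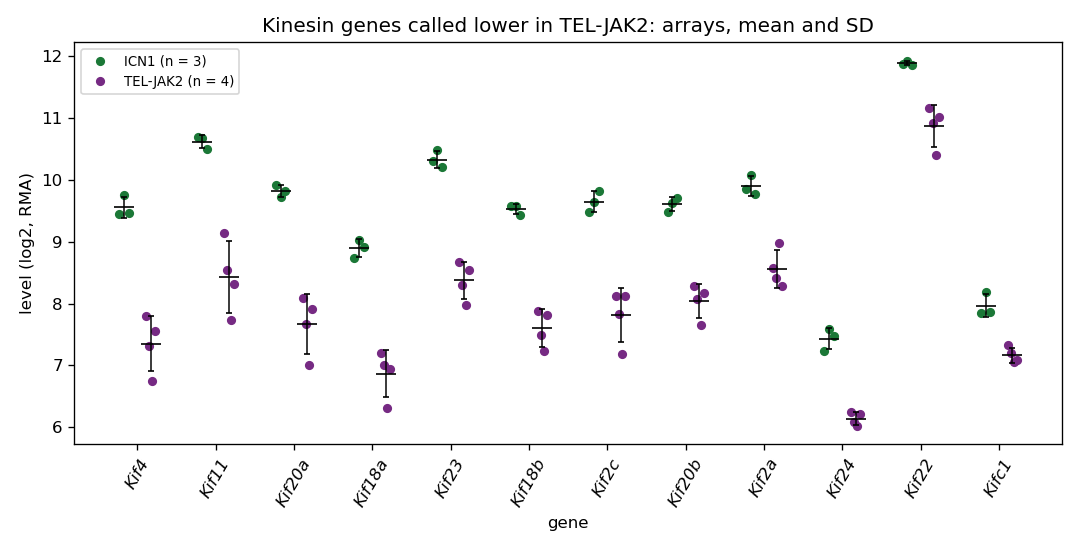
Level (y axis, RMA, log2) in each of the 7 arrays for the 12 kinesin genes called lower in TEL-JAK2 (x axis), with the mean and SD of the 3 ICN1 and 4 TEL-JAK2 arrays. In each gene the TEL-JAK2 arrays sit below all ICN1 arrays, and for Kif11 the TEL-JAK2 arrays spread from 7.73 to 9.14.

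The fall was uneven among the TEL-JAK2 samples. Over the 10 mitotic kinesins that fell, the SD was 0.034 to 0.188 in ICN1 and 0.12 to 0.58 in TEL-JAK2, and it was larger in TEL-JAK2 in 9 of 10. TEL-JAK2 replicate 3 was lowest of its group in 10 of 10 of these genes and replicate 1 highest in 9. Without TEL-JAK2 replicate 3, and without any other single array, the same 12 kinesins were called lower, where 9.26% to 11.4% of all genes were in these fits.

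The genes that work with these motors were lower too. Of 16 partners listed, 15 were measured and all 15 were lower in TEL-JAK2 (12.2% of all genes were), with a median difference of -1.85. They include Prc1, the microtubule bundler that Kif4 delivers to the central spindle (-2.08 ± 0.27, adjusted p = 0.00185), and Racgap1, the partner of Kif23 (-1.30 ± 0.30, adjusted p = 0.0181, and 0.0632 without ICN1 replicate 2). The kinases Aurka (-2.01 ± 0.17, adjusted p = 0.000322) and Plk1 (-1.61 ± 0.18, adjusted p = 0.000987) act on the spindle, and citron kinase Cit (-1.83 ± 0.17, adjusted p = 0.000469) on the midbody.

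Cenpe, a kinesin of the kinetochore whose symbol falls outside the naming rule, stood at 10.05, 10.35 and 9.89 in ICN1 and 8.46, 8.02, 7.40 and 8.25 in TEL-JAK2. Its arrays split the same way as those of Kif11 (-2.06 ± 0.26, adjusted p = 0.00157). The 10 proliferation markers listed were all lower (12.2% of all genes were), with a median of -1.57. Mki67, a protein of dividing cells, stood at 13.40, 13.56 and 13.22 in ICN1 and 11.43, 11.04, 10.43 and 11.63 in TEL-JAK2 (-2.26 ± 0.28, 4.8-fold, adjusted p = 0.00151). TEL-JAK2 replicate 3 was lowest of its group in 14 of the 15 partners and 10 of the 10 proliferation markers. Without ICN1 replicates 1 and 2, 9 of the 15 partners and 3 of the 10 proliferation markers were called lower, where 8.56% of all genes were. Against a 1.5-fold difference, with all 7 arrays, 13 partners and 4 proliferation markers were called lower, where 3.69% of all genes were.

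Transport kinesins gave a different picture. Kinesin-1 moves mitochondria, vesicles and RNA toward the cell edge, and Kif5b is its form in most tissues. Kif5b stood at 10.01, 10.04 and 10.35 in ICN1 and 10.09, 9.86, 10.15 and 9.87 in TEL-JAK2. The groups overlapped, and the difference of -0.14 ± 0.13 was not called (adjusted p = 0.493), nor was that of any of its 6 probe sets. The neuronal forms Kif5a (0.23 ± 0.13, adjusted p = 0.246) and Kif5c (0.32 ± 0.12, adjusted p = 0.106) lay below the median probe set and overlapped between groups. Without TEL-JAK2 replicate 4 the adjusted p of Kif5c was 0.0208.

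Kinesin-2 is built from Kif3a with Kif3b or Kif3c, carries vesicles and moves cargo along the cilium. Kif3b read 6.58, 6.56 and 7.14 in ICN1 and 7.84, 7.40, 7.84 and 7.66 in TEL-JAK2. Every TEL-JAK2 array was above every ICN1 array, though ICN1 replicate 3 stood nearer to them than the other two. Kif3b rose by 0.93 ± 0.18, or 1.9-fold (adjusted p = 0.0105), in all 4 of its probe sets (0.49 to 1.01). It was called in each of the 7 fits without 1 array (adjusted p 0.00477 to 0.0392).

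Kif3c, with 7.78, 7.48 and 7.70 in ICN1 and 8.48, 8.01, 8.69 and 7.96 in TEL-JAK2, was higher in every TEL-JAK2 array but just outside the threshold (0.63 ± 0.20, adjusted p = 0.0597, and 0.0392 without TEL-JAK2 replicate 4). The second Kif3c probe set differed by 0.03 and was not called (limma, adjusted p = 0.912). Kif3a overlapped between the groups, at 6.65, 6.92 and 7.48 and at 7.33, 6.93, 6.88 and 6.52 (-0.10 ± 0.25, adjusted p = 0.812). Kifap3, the adaptor that links kinesin-2 to cargo, was not called either (-0.13 ± 0.21, adjusted p = 0.718). Kif17, a motor of dendrites and cilia, showed no called difference (0.03 ± 0.13, adjusted p = 0.901).

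Kinesin-3 motors carry vesicle precursors, endosomes and other membranes over long distances, and 0 of their 6 members passed limma's test (at an unadjusted p under 0.05 2 were higher, as were 18.8% of all genes). Kif1c stood at 6.74, 6.81 and 6.86 in ICN1 and 7.08, 7.42, 6.98 and 7.30 in TEL-JAK2, and Kif13b at 6.76, 6.58 and 6.64 and at 7.37, 6.81, 7.22 and 6.96. Both were higher in every TEL-JAK2 array and just outside the threshold, at 0.39 ± 0.13 (adjusted p = 0.0621) and 0.44 ± 0.15 (adjusted p = 0.0761). The other Kif1c probe sets differed by -0.00 to 0.38 and the other Kif13b probe sets by -0.08 to 0.14, none of them called. Kif1c was called without TEL-JAK2 replicate 3 and Kif13b without replicate 2 (adjusted p = 0.0439 in each). Kif1b depended on 1 array: ICN1 replicate 3 read 8.19 beside 6.38 and 6.66, above the TEL-JAK2 levels of 7.39, 7.08, 8.0 and 7.32 (0.37 ± 0.44, adjusted p = 0.599). Without that array Kif1b was 0.93 higher in TEL-JAK2 and was called (adjusted p = 0.0499). Kif16b, a motor of early endosomes (0.16 ± 0.20, adjusted p = 0.619), Kif1a, and Kif13a (-0.18 ± 0.25, adjusted p = 0.646) overlapped between the groups.

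The kinesin-14 motors Kifc2 and Kifc3 move the other way, toward the minus end. Kifc2, known from dendrites, stood at 5.90, 5.70 and 5.58 in ICN1 and 7.0, 6.59, 7.23 and 6.42 in TEL-JAK2. The TEL-JAK2 arrays were all higher, by 1.09 ± 0.21 or 2.12-fold (adjusted p = 0.00927). The second Kifc2 probe set was not called (0.23, adjusted p = 0.218), so its probe sets disagree in size. Kifc3, which acts at cell junctions, ranged from 6.22 to 7.14 in ICN1 and from 5.95 to 7.72 in TEL-JAK2, where replicate 4 was the highest array of all (-0.13 ± 0.45, adjusted p = 0.866).

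**Figure D4:**
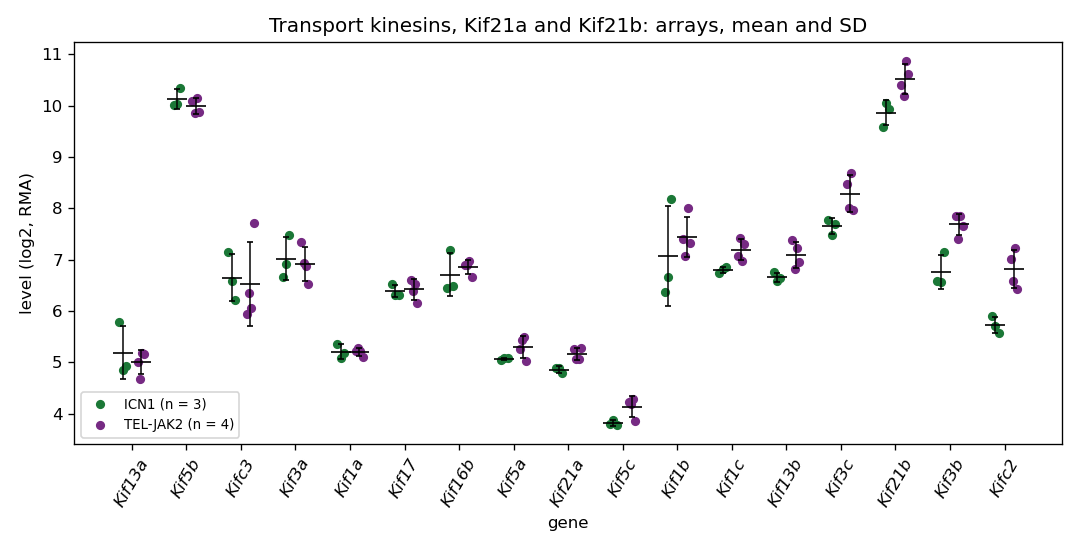
Level (y axis, RMA, log2) in each array for the 15 transport kinesins and Kif21a and Kif21b (x axis), with the mean and SD of the 3 ICN1 and 4 TEL-JAK2 arrays. All TEL-JAK2 arrays lie above all ICN1 arrays for Kif3b, Kifc2 and Kif21b, which were called. The same holds for Kif3c, Kif1c, Kif13b and Kif21a, which were not called. The groups overlap for Kif5b, with ICN1 from 10.01 to 10.35 and TEL-JAK2 from 9.86 to 10.15.

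The partners that tie transport motors to cargo were called in both directions. Of 19 listed, 16 were measured, with a median of 0.14. Their differences were above 0 in 12 and below 0 in 4, against 10206 and 7987 of all 18193 genes. By limma 1 was called lower and 3 higher, where 12.2% and 11.9% of all genes were. The lower one was Trak2, the adaptor between kinesin-1 and mitochondria, at 11.00, 11.64 and 10.98 in ICN1 and 8.79, 8.71, 9.12 and 8.47 in TEL-JAK2 (-2.43 ± 0.21, 5.4-fold, adjusted p = 0.000377). Klc3, a kinesin light chain, was 2.62 ± 0.70 higher (adjusted p = 0.0319), Fez2 1.66 ± 0.39 (adjusted p = 0.0205) and Kidins220 0.52 ± 0.15 (adjusted p = 0.0447). These 3 higher calls were lost in 5, 3 and 6 of the 7 fits without 1 array, with adjusted p up to 0.097, 0.0648 and 0.107. Klc1, another light chain, was not called (0.45 ± 0.14, adjusted p = 0.0587).

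Dynein is the motor that carries cargo the opposite way, with dynactin as its cofactor. Of 20 dynein and dynactin genes measured 0 were called lower by limma and 4 higher, with a median of 0.17 (2 and 7 at an unadjusted p under 0.05, where 17.2% and 18.8% of all genes passed). Dctn6 (1.70 ± 0.14, adjusted p = 0.000317) and the dynein regulator Ndel1 (0.59 ± 0.09, adjusted p = 0.00366) were called in each fit without 1 array. Dctn5 (0.50 ± 0.11, adjusted p = 0.0153) was not called once ICN1 replicate 1 was left out (adjusted p = 0.0505), nor was Dync1li1 (0.29 ± 0.08, adjusted p = 0.0386) in any of the 7 fits (adjusted p 0.0601 to 0.109).

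Of the cilium kinesins, Kif24 alone was called. It holds back the growth of cilia by shortening microtubules of the mother centriole. Its levels were 7.24, 7.59 and 7.48 in ICN1 and 6.25, 6.08, 6.02 and 6.21 in TEL-JAK2. All TEL-JAK2 arrays were lower, by 0.99 for the closest pair, and the difference was -1.30 ± 0.12 (2.46-fold, adjusted p = 0.000414), in 3 of 3 probe sets. Kif7, a regulator of Hedgehog signalling at the cilium tip, ranged from 6.49 to 6.89 in ICN1 and from 6.71 to 7.10 in TEL-JAK2 (0.17 ± 0.14, adjusted p = 0.416). Kif6, Kif9 and Kif27, related to motile cilia, lay below the median probe set and were not called (-0.01 to 0.17).

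The 17 genes of intraflagellar transport, the cargo trains of kinesin-2 in cilia, were called lower in 3 cases and higher in 3, with a median of 0.05. Of all genes, 12.2% were called lower and 11.9% higher. Ift140 was the furthest apart, at 11.05, 10.84 and 10.25 in ICN1 and 8.23, 8.18, 8.32 and 8.44 in TEL-JAK2 (-2.42 ± 0.19, adjusted p = 0.000237). Ift74 fell by 1.18 ± 0.25 (adjusted p = 0.0138), and both calls held in each fit without 1 array. Ift122 (-0.85 ± 0.25, adjusted p = 0.045) lost its call in 6 of the 7 fits (adjusted p up to 0.124). Ift80 (1.13 ± 0.24, adjusted p = 0.0143), Ift52 (0.44 ± 0.11, adjusted p = 0.0253) and Ift172 (0.63 ± 0.18, adjusted p = 0.042) were higher, and lost their calls in 1, 3 and 5 fits (adjusted p up to 0.0508, 0.082 and 0.128).

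Kif21b, which slows microtubule growth and is found in lymphocytes and neurons, was the other member that rose. It stood at 9.59, 10.06 and 9.94 in ICN1 and 10.40, 10.18, 10.88 and 10.62 in TEL-JAK2. The groups did not overlap, but ICN1 replicate 2 and TEL-JAK2 replicate 2 lay close together. The difference was 0.66 ± 0.19 (1.58-fold, adjusted p = 0.0436), and both probe sets were called. Leaving out any single array except TEL-JAK2 replicate 2 ended the call (adjusted p 0.0583 to 0.133).

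Kif21a, its relative, was dim and not called, at 4.89, 4.89 and 4.79 in ICN1 and 5.26, 5.06, 5.06 and 5.27 in TEL-JAK2 (0.30 ± 0.10, adjusted p = 0.0637). With Kif3c, Kif1c and Kif13b it made up the 4 members whose groups did not overlap without passing the test. All 4 were higher in TEL-JAK2. In all, 12 kinesins lay lower and 8 higher without overlap, where 34.3% of all genes did, 15.9% lower and 18.4% higher. Kif12, Kif26a, Kif26b and Kif28 were below the median probe set and differed by -0.03 to 0.17.

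The contrast between the classes was read within each array as the mean level of the 13 mitotic kinesins minus that of the 15 transport kinesins. Levels of different probe sets are not on a common scale, so the number has meaning only between arrays. It was 1.99, 2.16 and 1.93 in ICN1 and 0.62, 0.52, -0.08 and 0.56 in TEL-JAK2. All ICN1 arrays were higher, and TEL-JAK2 replicate 3 stood below the other arrays of its group. The means were 2.03 ± 0.12 and 0.41 ± 0.33 (SD, n = 3 and 4), a difference of -1.62, and -1.46 without TEL-JAK2 replicate 3.

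On the deposited scale the mitotic mean moved more than the transport mean. The mean mitotic level was 8.45, 8.54 and 8.45 in ICN1 and 7.41, 7.14, 6.77 and 7.21 in TEL-JAK2. The mean transport level was 6.46, 6.38 and 6.53 in ICN1 and 6.78, 6.62, 6.85 and 6.65 in TEL-JAK2. TEL-JAK2 minus ICN1, the mitotic mean differed by -1.35 and the transport mean by 0.27. TEL-JAK2 replicate 3, the lowest array in the mitotic mean, was the highest in the transport mean, and highest of its group in 8 of the 15 transport kinesins.

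The size of the transport difference depends on the scale. When each array was centred on 4 CD3 genes of the T cell receptor complex, whose mean was 0.62 higher in TEL-JAK2, every difference was that much lower and the median of all genes moved from 0.04 to -0.58. On that scale 26 kinesins were called lower, against 62.7% of all genes, among them 5 transport kinesins, and Kifc2 alone was called higher, against 4.33% of all genes. Kif3b was then 0.31 (adjusted p = 0.267), Kif21b 0.04 (adjusted p = 0.885), and Kif15 turned to -0.30. Kif1c, Kif13b, Kif1b, Kif5a, Kif5c, Kif16b, Kif7 and Kif21a, positive and not called on the deposited scale, turned negative without being called (-0.47 to -0.19). The cargo partners were then called lower in 7 and higher in 2, the dynein and dynactin genes in 9 and 1 and the intraflagellar transport genes in 10 and 0. The difference between the classes could not change, since centring takes the same number from every gene of an array.

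**Figure D5:**
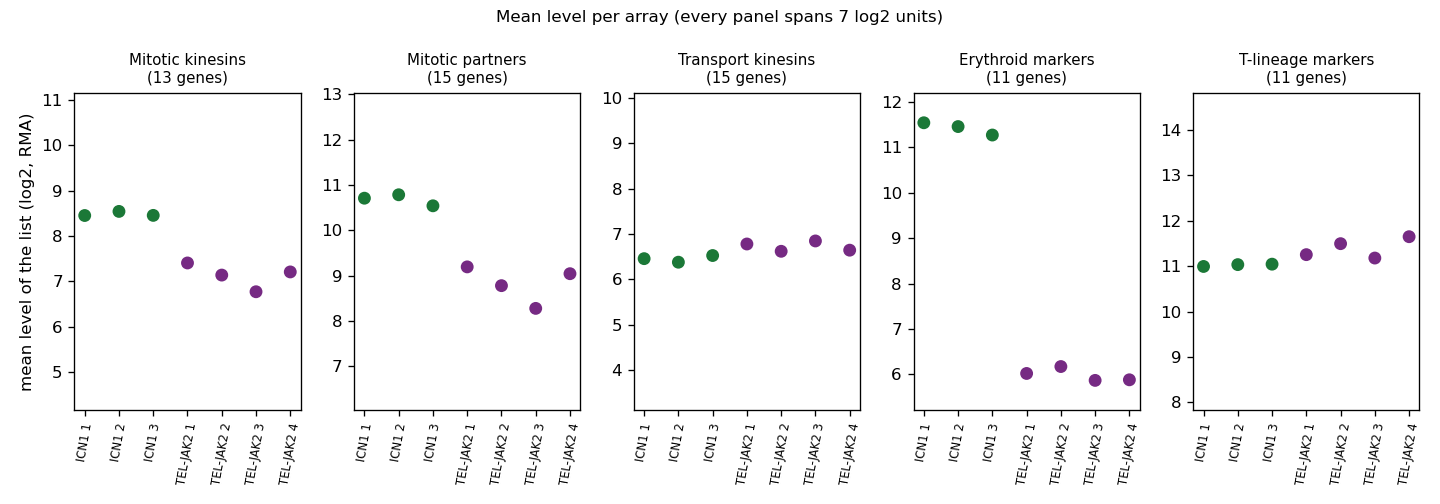
Mean level per array (y axis, RMA, log2, each panel spanning 7 units) of the 13 mitotic kinesins, 15 mitotic partners, 15 transport kinesins, 11 erythroid markers and 11 T lineage markers, for 3 ICN1 and 4 TEL-JAK2 arrays. Mitotic kinesins and partners are lower in all TEL-JAK2 arrays and lowest in replicate 3, transport kinesins stay between 6.38 and 6.85, and the erythroid markers run from 11.27 to 11.54 in ICN1 and from 5.86 to 6.17 in TEL-JAK2.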

How the data were processed

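RNA of 3 ICN1 and 4 TEL-JAK2 samples was measured on 1 array each. The authors deposited log2 expression values per probe set and array, computed with RMA per the submitters' processing notes, with no version given in the sources used here. RMA draws arrays toward 1 distribution, so a change in total RNA cannot be read, and it compresses folds near background. Batches were not tested, as no scan date was used here. Precision is limited by the number of arrays. Array medians ran from 5.44 to 5.50, and 0 columns of sample values were left unused.

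Of 45037 probe sets, 34945 had 1 gene symbol in the platform annotation, 932 several and 9160 none. The brightest probe set with 1 symbol stood for each of 18193 genes. Differences are TEL-JAK2 minus ICN1 from limma 3.58.1 under R 4.3.3 (two-sided, lmFit then eBayes with no trend), with Benjamini-Hochberg adjustment over all genes. Folds are 2 to the power of the difference. Tested on simulated data of this comparison with 18193 genes, the script called 71 of 100 genes changed by 1 log2 unit, 91 of 100 changed by 2, and 7 of 17993 unchanged. Figures were drawn with matplotlib 3.10.9. Replicates were numbered in accession order.

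The members, classes and lists were chosen with earlier results of these data known. Every kinesin could be named. Of related and marker lists, the rule named up to 4 called members with the smallest adjusted p, up to 2 with the largest, and members of counts of 5 or fewer. Mki67, Cenpe and the CD3 genes could be named always. Kifc5b, Prc1, Klc1 and Kifap3 were named outside the rule, as partners or copies of members. The red cell gene Slc4a1 and the Y-linked Eif2s3y were also named outside it. Alternatives changed the probe set per gene, the filter on dim genes, the normalization, the variance model, the array weights, the test, the threshold, the classes and the arrays included.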

Additional observations from a re-analysis of the deposited data

Results flagged for a closer look

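In TEL-JAK2 replicate 3 the mean level of the mitotic kinesins minus that of the transport kinesins was -0.0784, while the other 3 TEL-JAK2 arrays lay between 0.52 and 0.62. The array was picked out because its gap to the nearest of its group was wide for the range of the group, by Dixon's test. The test was made on 43 sets of values, and chance picks out about 1 in 20, or 2.1 here. The same array was lowest of its group in 10 of the 10 mitotic kinesins that fell, in 14 of the 15 mitotic partners and in all 11 macrophage markers. The cause was not tested.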

How the results depend on the processing

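No paired analysis was possible because the labels give the groups no shared replicate numbers. With each array left out in turn, 12 kinesins were lower in every fit and the same ones, 2 to 4 were higher, 2 to 4 transport kinesins were higher, 3209 to 4236 genes differed, and the class contrast of -1.62 ran from -1.46 to -1.69. Without both arrays holding Xist and Y-linked RNA, 0 kinesins were higher, 0 transport kinesins were higher and 2596 genes differed in place of 4380. In that fit the lone ICN1 array is assumed to vary like the others. CD3 centring gave 26 kinesins lower and 1 higher, 5 transport kinesins lower and 1 higher, and 12197 genes, of which 6.45% were higher in place of 49.4%. It turned Kif12 to -0.54, Kif15 to -0.30, Kif17 to -0.59, Kif26a to -0.52, Kif28 to -0.46, Kif6 to -0.45 and Kif9 to -0.60. A test against a 1.5-fold difference left 10 kinesins lower, 0 kinesins and 0 transport kinesins higher and 1187 genes. An adjusted p under 0.01 left 12 lower, 1 kinesin and 1 transport kinesin higher and 2191 genes. Leaving out dim genes took out the mitotic Kif14, Kif2b and Kif15 and the transport kinesins Kif13a, Kif1a, Kif5a and Kif5c. The contrast then moved to -2.10. Quantile normalization again called 4 transport kinesins higher. The causes were not tested. Under the other alternatives run, these counts stayed within 1.5 times their values and the contrast between -1.36 and -1.68. Centring an array, or changing the variance model, array weights, test or threshold, could not move this contrast of unweighted means.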
